A study of Mus musculus with 5 samples.

Results

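The 7 genes described here encode components and regulators of the complement cascade that were measured in cells of the Prx1 lineage sorted from mouse skeletal muscle. They are C1ra, C1s1, C2 and C4b of the classical pathway, C3 at the centre of the cascade, Cfb of the alternative pathway and Serping1, the C1 inhibitor. They were chosen by name from the complement genes with earlier results of these data known, and all 7 were found among the 31055 genes of the matrices. Counts of them set beside shares of all genes below are therefore not independent of that choice. Complement is a set of blood and tissue proteins that cut and activate one another on damaged cells and microbes. The liver makes most of the circulating pool, but fibroblastic cells of many tissues also transcribe complement genes, and interferons and inflammatory cytokines are known inducers. Skeletal muscle holds fibro-adipogenic progenitors and other mesenchymal progenitors (FAP/MP), which the study followed as they take part in the repair of a broken bone next to the muscle.

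GFP+ cells were sorted from the muscle of Prx1Cre;mTmG mice on a C57Bl/6 background, in which Cre driven by the Prx1 promoter of the limb mesenchyme switches a membrane tdTomato label to membrane GFP in a cell and its descendants. The groups were uninjured muscle (d0), muscle d3 and d5 after a non-stabilized tibial fracture, and muscle at the same days after polytrauma, in which the same fracture was combined with a mechanical injury of the muscles around it. Per the study's methods each library pooled 2 mice of 10 to 14 weeks, males or females, and the periosteum and bone marrow were left out of the dissection. Each condition has 1 library, so there is no test between conditions, and every interval given below is a 95% interval for counting error alone. The GFP transcript (EGFP) was present at 1805 to 2822 CPM in the 5 libraries and tdTomato at 0.00495 CPM or less, where CPM are the UMIs (single transcript molecules) of a gene over all UMIs of the retained cells of a library, scaled to a common total. Cells with 3 or more UMIs of the white blood cell gene Tyrobp were left out. The Tyrobp level of 0.233 to 1.30 CPM that remained follows in part from that filter. Ptprc, which marks blood cells, was at 0.154 CPM or less. Among the clusters below, summed blood cell markers were highest at 75.8 CPM in d5 post-polytrauma cluster 12 and 58.4 in d3 post-polytrauma cluster 9. All other clusters of at least 30 cells were at 31.3 CPM or less.

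The 5 libraries held 34439 barcodes, of which 29678 were retained for having 350 to 8000 genes, under 20% mitochondrial UMIs, at least 1000 UMIs and fewer than 3 Tyrobp UMIs. Retained cells numbered 4627 at d0. Fracture gave 5569 at d3 and 1466 at d5, and polytrauma gave 6101 at d3 and 11915 at d5. Their median depth was 3642 UMIs at d0 and 15769 to 34949 UMIs in the other libraries, so that the d0 cells were the shallowest and the d5 post-fracture cells the deepest. The library used as d3 post-polytrauma (6915 barcodes) is labelled d5 post-fracture in the repository, and the library used as d5 post-fracture (2001 barcodes) is labelled d3 post-polytrauma. The conditions were assigned by the cell numbers in the source data of the paper, which list for the d5 fracture sample the barcode number of the second of these libraries. Results under the deposited labels are given at the end. Of the 1466 retained barcodes at d5 post-fracture, 868 also occurred in the d5 post-polytrauma library, and both d5 libraries shared at most 3 barcodes with any library of d0 or d3. The d5 libraries therefore carry another set of barcodes than the d0 and d3 libraries, and a difference between d5 and d3 cannot be told apart from a difference in library preparation.

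The C1 proteases come first in the cascade. C1r cuts and activates C1s, and C1s then cuts C4 and C2. C1ra lies at chr6:124512405-124523443 on the plus strand and C1s1 at chr6:124530345-124542359 on the minus strand (GRCm38, GENCODE M21), 6901 bases apart and pointing toward each other. C1ra was at 194 (interval 187 to 200.4) CPM at d0, 32.9 at d3 post-fracture, 38.5 at d3 post-polytrauma, 114 at d5 post-fracture and 33.6 at d5 post-polytrauma. C1s1 was at 302 (interval 294 to 311), 34.9, 44.3, 191 and 51.4 CPM in the same order. Both genes were therefore highest at d0 and next highest at d5 post-fracture, and the other 3 libraries lay within 32.9 to 51.4 CPM. The nearby copies C1rb and C1s2 were at 0.0772 and 0.212 CPM or less in every library. In the last 500 bases of the transcript, where a 3' library reads, 9.43% of the 98-base windows of C1ra also occur in C1rb and 0.744% of those of C1s1 in C1s2, so these reads cannot be assigned with certainty.

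C2 and C4b encode the proteins that together form the classical C3 convertase, and Cfb encodes factor B, the counterpart of C2 in the alternative pathway. All 3 lie in the major histocompatibility complex of chromosome 17 on the minus strand, C4b at chr17:34728380-34743882, Cfb at chr17:34856374-34862518 and C2 at chr17:34862604-34898265, with 85 bases between Cfb and C2. C2 was at 21.3 (interval 19.2 to 23.6) CPM at d0, 11.1 at d3 post-fracture, 9.90 at d3 post-polytrauma, 33.5 at d5 post-fracture and 8.67 at d5 post-polytrauma. C4b was at 17.2 (interval 15.3 to 19.3), 8.53, 12.3, 89.7 and 10.7 CPM in the same order. These 2 genes thus differed from the C1 proteases in that d5 post-fracture, not d0, was their highest library. Cfb was at 29.9 (interval 27.4 to 32.6) CPM at d0, 9.13 at d3 post-fracture, 13.7 at d3 post-polytrauma, 16.5 at d5 post-fracture and 2.54 (interval 2.32 to 2.76) at d5 post-polytrauma, the lowest level of any of the 7 genes.

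The counts of these 3 genes carry a limit of annotation. Gm20547 (chr17:34856412-34882042) is a read-through gene on the minus strand that starts within C2 and runs into Cfb. It is among the counted genes and had 0 UMIs in all 5 libraries, while 90.6% of the windows in the last 500 bases of Cfb also belong to it and none of those of C2. Reads that fall on both may have been dropped by the counting, so the Cfb level may be too low in every library. C4a, a close relative of C4b, was not among the counted genes, and 16.6% of the windows in the last 500 bases of C4b also occur in it, so reads of C4a could be counted as C4b.

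C3 is the component on which all routes of activation meet and the most abundant complement protein in blood. It lies at chr17:57203970-57228136 on the minus strand. C3 was at 374 (interval 365 to 383) CPM at d0, 56.5 at d3 post-fracture, 67.1 at d3 post-polytrauma, 264 at d5 post-fracture and 36.4 at d5 post-polytrauma. Serping1 encodes the serpin that inactivates C1r and C1s and also restrains the kallikrein-kinin system. It lies at chr2:84765387-84775444 on the minus strand and had the highest level of the 7 genes in every library, at 1344 (interval 1327 to 1361), 355, 304, 606 and 195 CPM in the order above. C3 and Serping1 kept the order of the C1 proteases at the top, with d0 first and d5 post-fracture second, and were lowest at d5 post-polytrauma.

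**Figure D1:**
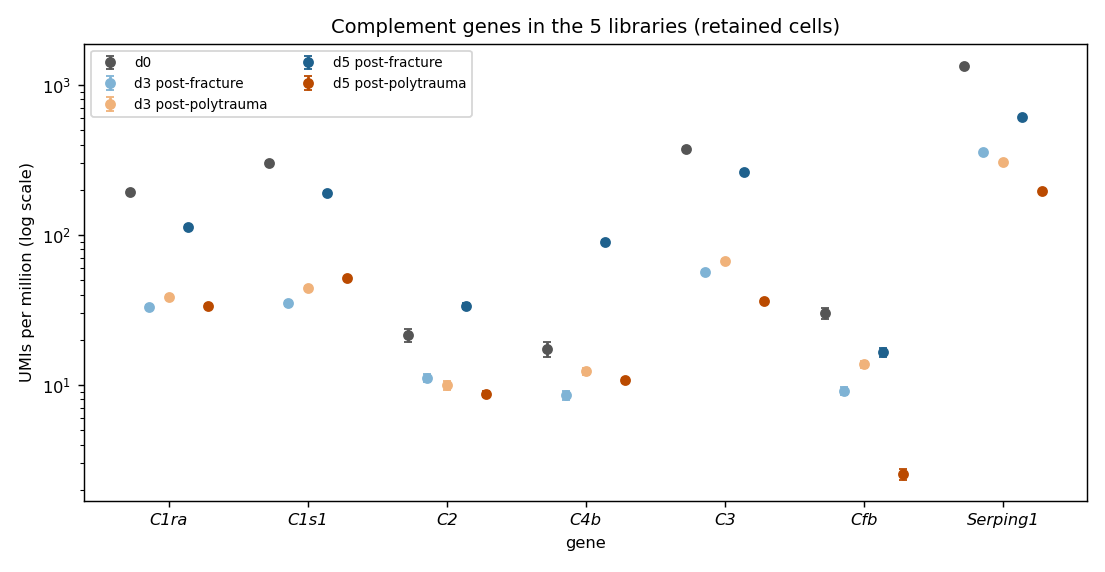
Level of each complement gene (CPM, log axis) in the retained cells of the 5 libraries, with bars for the 95% counting interval. Each gene except C2 and C4b was highest at d0, and C2 and C4b were highest at d5 post-fracture (33.5 and 89.7 CPM).

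Promoter sequence was given for 3 of the 7 genes, C3, C1s1 and C1ra, in the RefSeq table used here (GRCm38.p6). The start it lists for C1ra lies inside the first exon that GENCODE M21 gives, so that window is not shown. For C3 and C1s1 (the first of 2 listed starts) the 100 bases before the start are shown because C/EBP proteins are textbook regulators of acute-phase genes, and because both genes had the same 2 highest libraries. Capitals mark matches to a C/EBP-type motif, TTNNGNAA, searched on both strands.
C3, chr17:57228137-57228236, minus strand: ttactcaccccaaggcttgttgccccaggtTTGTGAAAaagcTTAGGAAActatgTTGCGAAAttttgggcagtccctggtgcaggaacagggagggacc
C1s1, chr6:124542360-124542459, minus strand: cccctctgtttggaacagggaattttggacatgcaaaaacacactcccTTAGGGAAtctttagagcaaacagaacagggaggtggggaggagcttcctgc
The C3 window held 3 separate matches, between 70 and 38 bases before the start, and C1s1 held 1. Of the 32851 promoters in the table, 14.9% held at least 1 match in the same 100 bases and 0.213% held 3 or more. Neither window held an interferon response element (GAAANNGAA, in 2.53% of promoters), a STAT motif (TTCNNNGAA, in 2.55%) or an NF-kB motif (GGGANTTNC, in 1.51%). The matches describe the sequence and no binding was measured. Cebpb itself was at 230.0 CPM at d0, 22.4 and 33.0 in the d3 libraries and 381.5 and 402.2 in the d5 libraries. Cebpd was at 250.2, 24.4, 19.2, 662.7 and 400.6. Both were lower in the d3 libraries than at d0 and higher in the d5 libraries. Whether their levels bear on C3 or C1s1 was not tested.

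The comparison of d3 post-fracture with d0 asked how the genes differed in the first days after a fracture. Of the 7 genes, 6 were at least 2-fold lower at d3 post-fracture and none was higher. C1s1 was 8.67-fold lower (interval 8.30 to 9.05), C3 6.62-fold (6.39 to 6.86), C1ra 5.88-fold, Serping1 3.78-fold, Cfb 3.28-fold and C4b 2.02-fold. C2 was 1.92-fold lower (interval 1.71 to 2.17). Over the 9377 genes with a mean of at least 5 CPM, 25.1% were at least 2-fold lower and 12.6% at least 2-fold higher, and the median log2 ratio was -0.27, against a median of -1.92 over the 7 genes. Ranked among these genes from the lowest ratio, C1s1 stood at percentile 3.34 and C3 at 4.82, while C2 stood at 26.7 and C4b at 24.8.

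The lower share of the RNA did not always mean fewer molecules per cell, because the median d3 post-fracture cell gave 17997 UMIs and the median d0 cell 3642. Per 1000 cells C3 was at 1408 UMIs at d0 and 1012 at d3 post-fracture, C1s1 at 1139 and 625.4, and C1ra at 729.6 and 590.2. By the same measure C2 was at 80.4 and 198.8 UMIs per 1000 cells, C4b at 64.8 and 152.8, Cfb at 112.6 and 163.6 and Serping1 at 5061 and 6368. The lower level of C3, C1s1 and C1ra at d3 thus held on both scales, and the other 4 genes had more UMIs per cell at d3 than at d0. Counting per cell moves the d3 ratio of every gene up by the same factor, because the d3 cells gave more UMIs. No share of all genes was computed on this scale, so a higher count per cell does not set these 4 genes apart from other genes. Cell size, RNA content and the depth of sequencing all enter UMIs per cell, and they cannot be told apart here.

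At d3 post-polytrauma against d0, 6 of the 7 genes were also at least 2-fold lower, against 25% of all genes tested, and none was higher, against 11.6%. C1s1 was 6.83-fold lower (interval 6.57 to 7.11), C3 5.57-fold, C1ra 5.03-fold, Serping1 4.42-fold, Cfb 2.18-fold and C2 2.16-fold, while C4b was 1.40-fold lower. Both d3 comparisons use the d0 library, so they are not independent of each other. With cells of at least 2000 UMIs thinned to that depth, C4b post-fracture (log2 ratio -0.32) and C2 (-0.48) and Cfb (-0.63) post-polytrauma were short of 2-fold. C4b post-polytrauma was above d0 there (0.30). This setting weighted all cells equally. It kept 3884 of 4627 cells at d0, 5345 of 5569 at d3 post-fracture and 6031 of 6101 at d3 post-polytrauma. The other calls against d0 held under it, and the effects of depth, dropped cells and weight were not told apart.

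The 2 injuries were compared directly at d3. Over all retained cells none of the 7 genes differed by 2-fold between d3 post-polytrauma and d3 post-fracture, where 1.57% of all genes were at least 2-fold higher and 1.83% at least 2-fold lower. Cfb was 1.504-fold higher post-polytrauma (interval 1.38 to 1.64), C4b 1.44-fold, C1s1 1.27-fold, C3 1.19-fold and C1ra 1.17-fold. Serping1 was 1.17-fold lower and C2 1.12-fold lower. Ranked among the genes tested from the lowest ratio, Cfb stood at percentile 94.9, C4b at 93.9, C1s1 at 88.2, C3 at 82.6 and C1ra at 81.0. C2 stood at 31.3 and Serping1 at 23.8. Interferon-stimulated genes, which share known inducers with C4b and Cfb, had a higher median ratio than the complement genes in this comparison. Of the 22 listed interferon-stimulated genes among the genes tested, 14 were at least 2-fold higher post-polytrauma and none was lower. Their median log2 ratio was 1.42, against 0.25 for the 7 complement genes and -0.04 over all genes tested. Isg15, a ubiquitin-like protein induced by interferon, was at 13.2 CPM at d3 post-fracture and 47.0 at d3 post-polytrauma.

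At d5 the 2 injuries stood far apart. All 7 genes were at least 2-fold lower post-polytrauma than post-fracture, against 6.97% of all genes tested, while 1.4% of genes were at least 2-fold higher. C4b was 8.37-fold lower (interval 7.95 to 8.81), C3 7.27-fold (7.07 to 7.48), Cfb 6.50-fold (5.82 to 7.27), C2 3.86-fold, C1s1 3.72-fold, C1ra 3.38-fold and Serping1 3.11-fold. The median log2 ratio was -1.95 over the 7 genes and -0.01 over all genes tested. Both libraries carry the same kind of barcode. The median depth was 34949 UMIs post-fracture and 15769 post-polytrauma, so per cell the ratio of every gene moved down by the same factor. The wider difference per cell is therefore not a separate result. Per 1000 cells C3 was at 9340 UMIs post-fracture and 616.2 post-polytrauma, and Serping1 at 21414 and 3301. Without any barcode that occurred in another library, which left 598 cells at d5 post-fracture, the 7 genes were still 3.20-fold to 7.28-fold lower post-polytrauma, and C4b was at 77.2 and 10.6 CPM.

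From d3 to d5 the 2 injuries differed in direction for 6 of the 7 genes. For C2, C4b and C1ra the change post-polytrauma was small. After fracture 5 of the 7 genes were at least 2-fold higher at d5, against 33% of all genes tested, and none was lower, against 4.35%. C4b was 10.5-fold higher (interval 9.77 to 11.3), C1s1 5.47-fold, C3 4.68-fold, C1ra 3.45-fold and C2 3.02-fold, while Cfb was 1.81-fold and Serping1 1.71-fold higher. By median-of-ratios scaling C2 fell short of 2-fold (log2 ratio 0.86). After polytrauma none of the 7 was at least 2-fold higher at d5, against 25.3% of all genes tested, and only Cfb was lower by that measure, at 5.42-fold (interval 4.89 to 6.00), against 3.36%. C3 was 1.85-fold lower at d5 post-polytrauma and C1s1 1.16-fold higher. C2, C4b and C1ra were only slightly lower there, with log2 ratios of -0.191, -0.201 and -0.196. By median-of-ratios scaling C3 (log2 ratio -1.38) and Serping1 (-1.14) were also past 2-fold lower post-polytrauma. These d3 to d5 ratios rest on libraries of different barcode sets, as stated above, and the median gene was itself higher at d5, by 0.54 on the log2 scale post-fracture and 0.46 post-polytrauma.

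**Figure D2:**
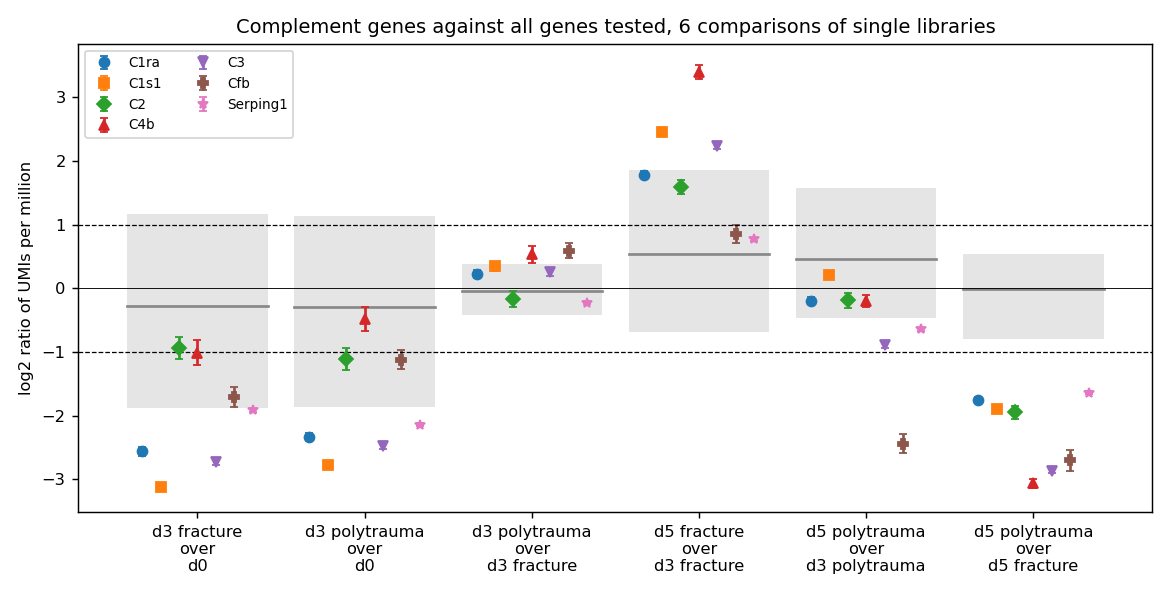
Log2 ratio of CPM for the 7 genes in 6 comparisons of single libraries, with bars for the 95% counting interval, the median (grey line) and the 10th to 90th percentile (grey band) of 9377 genes, and dashed lines at a 2-fold difference. All 7 genes lie below the lower dashed line at d5 post-polytrauma over d5 post-fracture, and all lie between the dashed lines at d3 post-polytrauma over d3 post-fracture.

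The share of cells with a UMI was compared after each cell had been thinned at random to 1000 UMIs, since depth differed between libraries. Serping1 was found in 63.9% of cells at d0 (exact binomial interval 62.5 to 65.3), 29.6% at d3 post-fracture, 27.8% at d3 post-polytrauma, 38.3% at d5 post-fracture and 18.3% at d5 post-polytrauma. C3 was found in 21.2%, 7.24%, 8.05%, 16.5% and 4.10% of cells in the same order, and Cfb in 2.81%, 1.22%, 2.03%, 2.59% and 0.403%. Without thinning the shares for Serping1 were 87.6%, 82.7%, 81.2%, 90.5% and 69.9%. The 100 cells left out for Tyrobp at d3 post-polytrauma were set beside the retained cells, as cells that should not be of the Prx1 lineage. With a median of 4028.5 UMIs against 15810 in the retained cells, 6% of them held Serping1 after thinning (interval 2.23 to 12.6) and 3% held C3 (0.623 to 8.52), against 27.8% and 8.05% of the retained cells of that library. Of these 2 shares, that with Serping1 lay above the interval of the Tyrobp cells and that with C3 lay within it. By CPM C3 was at 67.1 in the retained cells and 30.3 (18 UMIs) in the Tyrobp cells, and over the clusters of that library it ranged from 9.31 to 283 CPM. The 20 Tyrobp cells at d3 post-fracture had C3 at 82.4 CPM (13 UMIs), above the 56.5 of the retained cells. After thinning, 10% of them held C3 (interval 1.23 to 31.7), against 7.24% of the retained cells. Serping1 was at 304 CPM in them and 355 in the retained cells, and in 10% and 29.6% of cells after thinning. The 26 Tyrobp cells at d5 post-polytrauma had C3 at 22.3 CPM (6 UMIs), against 36.4. The source of the UMIs in the Tyrobp cells was not tested.

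The share of cells with at least 1 of the complement genes followed the order of the C3 shares. At 1000 UMIs per cell, 21.4% of cells at d0 held none of the 7 genes, against 63.9% and 62.4% in the d3 libraries, 46.5% at d5 post-fracture and 72.8% at d5 post-polytrauma. Cells with 3 or more of the genes were few, and those with exactly 3 numbered 507 of 4627 at d0 and 108 of 1466 at d5 post-fracture. C3 was found more often in cells with C4b than in cells without it in all 5 libraries. The same held for C3 and each of the other complement genes described here, so it is not particular to C4b. At d5 post-fracture, for example, C3 was in 37.8% of cells with C2 and 15.8% of cells without it. At d0 C3 was present in 62.3% of the 77 cells with C4b and in 20.5% of cells without it, and at d5 post-fracture in 50% of the 116 cells with C4b and in 13.6% of those without. The same shares were 43.2% and 6.75% at d3 post-fracture, 30.3% and 7.56% at d3 post-polytrauma, and 23.0% and 3.84% at d5 post-polytrauma.

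Clusters were then formed within each library without using the complement genes or the cell type markers. A cluster was given a name only where at least 3 markers of a cell type stood out in it. It was still left unnamed where markers of another type led its leading genes or its cells were too shallow. Cluster 9 at d0, with 3 FAP/MP markers, and cluster 9 at d3 post-fracture, with 4, were left unnamed in this way. They are not part of the FAP/MP-like clusters compared below. At d0, C3 was by far highest in the 210 cells of cluster 9, led by Mrgprg and Col6a5, at 2924 CPM. It was at 589 in cluster 1, led by Stmn4 and Il18 and holding the progenitor gene Pi16 among its leading genes, 20.5 in the main pericyte-like cluster and 18.6 (8 UMIs) in the osteoblast-like cluster, a 157-fold range. C2 followed another pattern, at 597 CPM in the 37 perineurial-like cells (57 UMIs, interval 452 to 774) and 144 in cluster 6, led by Inmt and Gdf10, against 1.68 in cluster 1 and 3.14 in cluster 9. C4b was highest in cluster 6 at 62.8 CPM and in the FAP/MP-like cluster 4 at 55.8, and Cfb stood at 77.1 and 79.6 in these clusters. The C1 proteases and their inhibitor covered a narrower range than C3. Serping1 ranged from 271 in a tenocyte-like cluster to 2328 CPM in cluster 6, and C1s1 from 61.9 to 509.

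After injury C3 was highest, in each library, in a cluster with Pi16 among its leading genes. At d3 post-fracture C3 was at 1050 CPM in the 157 cells of cluster 9, led by Clec3b and Pi16, and at 231 in the FAP/MP-like cluster, against 3.51 in the largest dividing cluster. Serping1 was at 2546, 1036 and 83.2 in the same 3 clusters. Cluster 9 was shallow, with a median of 5847 UMIs a cell. The highest C3 by cluster in that library was 264 CPM at resolution 0.3 and 1363 at 0.8. At d3 post-polytrauma the FAP/MP-like cluster, whose leading genes included the interferon-induced Ifit1 and Isg15 as well as C4b, held the highest level of 6 of the 7 genes, with C3 at 283 and C4b at 78.9 CPM. C2 was highest in the 54 perineurial-like cells, at 56.5.

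At d5 post-fracture all 7 genes were highest in 1 of 2 FAP/MP-like clusters. Cluster 6, led by Pi16 and Dpp4, had C3 at 1085 and C4b at 395 CPM, and cluster 5, led by Cxcl14 and Rsad2, had Serping1 at 1848 and C2 at 136. The chondrocyte-like cluster of the same library had C3 at 25.3, C4b at 7.71 and Serping1 at 70.1 CPM. At d5 post-polytrauma the FAP/MP-like cluster, led by Pi16, had the highest C3 (221), C4b (61.8), Cfb (10.4) and Serping1 (649), while C1s1 was higher in cluster 5, led by Penk and Cxcl10 (146), than in it (130). Cluster 12 and the chondrocyte-like cluster 13 of that library consisted for 58.2% and 41.4% of barcodes also present in the d5 post-fracture library. Within that library C3 ranged from 2.71 CPM in cluster 4, led by the mitotic genes Cenpa and Cdc20, to 221, so its UMIs were not spread evenly over the clusters.

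**Figure D3:**
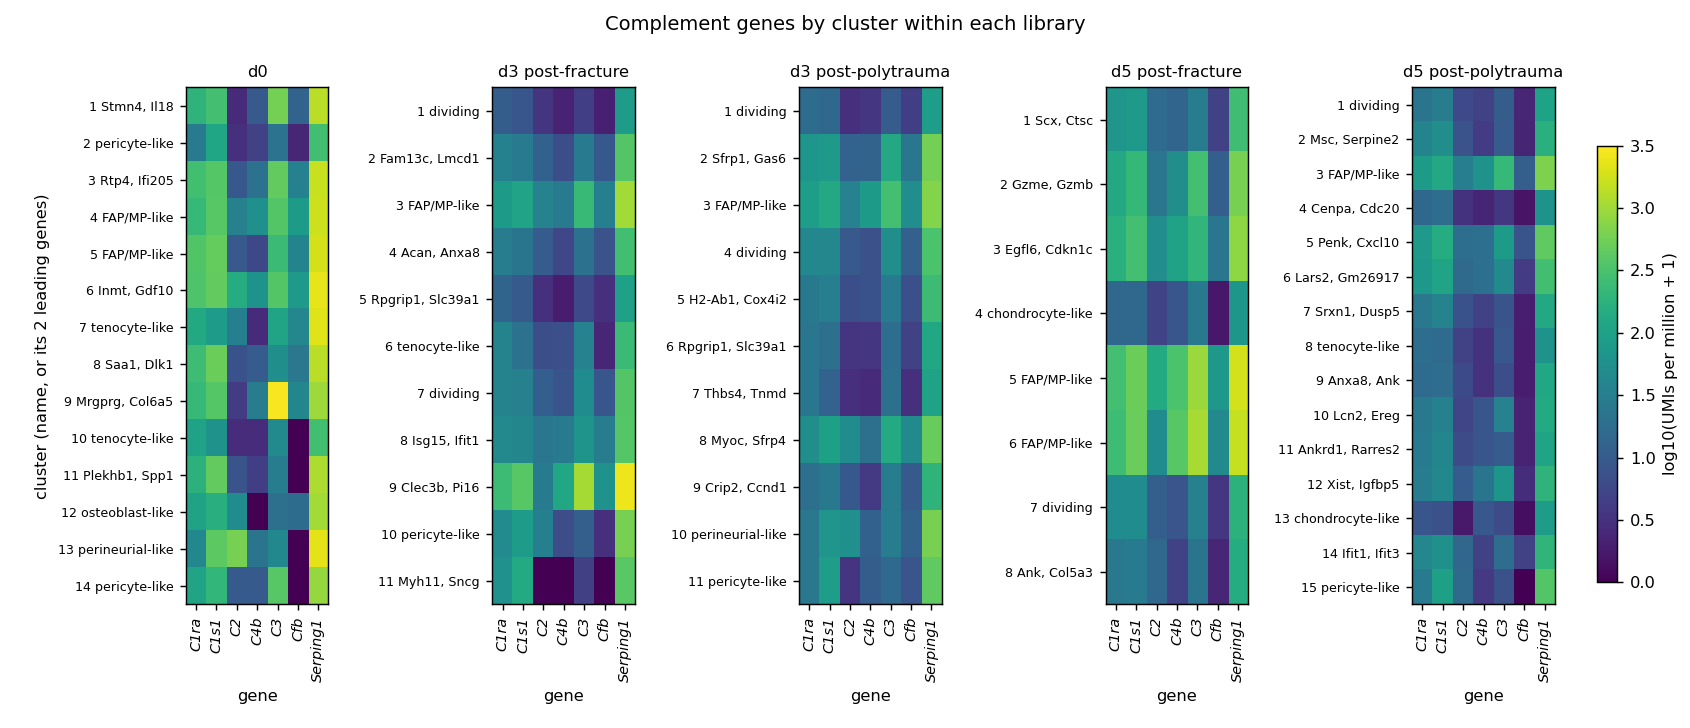
Level of the 7 genes, as log10 of CPM plus 1, in each cluster of at least 30 cells within the 5 libraries, with clusters given by name or by their 2 leading genes. C3 is at 2924 CPM in cluster 9 of d0, and the FAP/MP-like clusters carry the highest C3, C4b and Serping1 in both d5 libraries.

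Because the mixture of cells differs between libraries, the levels were compared again within FAP/MP-like clusters alone (clusters 4 and 5 at d0, clusters 5 and 6 at d5 post-fracture and cluster 3 in the other libraries). C3 was at 307, 231, 283, 1013 and 221 CPM at d0, d3 post-fracture, d3 post-polytrauma, d5 post-fracture and d5 post-polytrauma. C4b was at 32.9, 27.4, 78.9, 353 and 61.8, and Serping1 at 1775, 1036, 701, 1708 and 649. C1s1 was at 429, 110, 130, 509 and 130, and C1ra at 279, 78.6, 90.4, 273 and 80.1. C2 was at 21.4, 34.7, 34.9, 96.9 and 30.2, and Cfb at 60.5, 31.8, 51.5, 59.7 and 10.4. In these clusters d5 post-fracture was thus the highest library for C3, C4b, C1s1 and C2, and C3 and C4b at d3 post-fracture stood closer to d0 than in all cells. At d0, however, these clusters held 24.2% of cells and 17.6% of the C3 UMIs, and unnamed clusters, 1 and 9 among them, held 77.4%. In the other libraries the FAP/MP-like clusters held 36.1% to 65.6% of the C3 UMIs. The d0 and d3 post-fracture sets both leave out cluster 9 of their library, where C3 was highest.

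At d3 post-fracture against d0, 2 of the 7 genes were at least 2-fold lower in FAP/MP-like clusters, C1s1 at 3.90-fold (interval 3.63 to 4.19) and C1ra at 3.55-fold (3.26 to 3.87), against 21.8% of the 9320 genes tested there, and none was higher, against 9.42%. C3 was 1.33-fold lower (interval 1.24 to 1.42) where it had been 6.62-fold lower over all cells, and C2 was 1.62-fold higher. This C3 ratio leaves out the unnamed clusters, which held 77.4% of the C3 UMIs at d0. At d3 post-polytrauma against d3 post-fracture, C4b was 2.87-fold higher in FAP/MP-like clusters (interval 2.53 to 3.27), the only 1 of the 7 genes past 2-fold. Of all genes tested there, 3.88% were higher and 4.81% lower. The post-fracture set leaves out cluster 9 of its library, where C4b was at 124 CPM, above the 78.9 of the post-polytrauma set. Summed interferon-stimulated genes were at 407 CPM in the post-fracture set and 2446 in the post-polytrauma set. At d5 post-polytrauma against d5 post-fracture all 7 genes were at least 2-fold lower in FAP/MP-like clusters, against 8.06% of genes, with 4.1% of genes higher. Cfb was 5.72-fold lower (interval 4.84 to 6.79), C4b 5.71-fold, C3 4.58-fold and Serping1 2.63-fold. Summed interferon-stimulated genes were at 3630 and 2010 CPM in clusters 5 and 6 of this post-fracture set and at 500 in the post-polytrauma set. The post-polytrauma set leaves out the unnamed cluster 14 of its library, where they were at 3702 CPM. Whether these levels bear on the complement genes was not tested. In dividing cells at d3 post-polytrauma against d3 post-fracture, 2237 and 1486 in number, 3 of the 7 genes were at least 2-fold higher, against 3.43% of 9377 genes, and none was lower, against 0.8%. Cfb was 3.01-fold higher there (interval 2.31 to 3.96), C3 2.33-fold (2.06 to 2.63) and C1s1 2.04-fold (1.82 to 2.30), and 1 of the 2 dividing clusters post-polytrauma was led by the stress genes Fos and Hspa1a. In dividing cells at d5, 1973 post-polytrauma and 123 post-fracture, 3 genes were at least 2-fold lower post-polytrauma, against 4.99% of genes, and none was higher, against 1.42%. These were C3 at 3.34-fold, C1ra at 2.35-fold and C2 at 2.14-fold. In chondrocyte-like cells, 227 and 177 in number, 3 were lower, against 3.06%, and none was higher, against 2.11%, with C3 at 4.70-fold (interval 2.79 to 8.55) and C2 and C1s1 past 2-fold on 2 and 18 UMIs post-polytrauma. In the post-fracture chondrocyte-like cluster 5 markers of dividing cells also stood out, and in the post-polytrauma one fewer than 3 did. C4b (ratio 1.03, interval 0.603 to 1.68) and Serping1 (1.18, interval 1.01 to 1.38) were not past 2-fold in these cells, and 41.4% of the barcodes of the post-polytrauma cluster were also in the d5 post-fracture library. In pericyte-like cells, 106 and 38 in number, C1s1 was 2.94-fold and C1ra 2.29-fold lower at d5 post-polytrauma, C4b was at 4 and 7 UMIs, and C2 and C3 had ratios of 1.48 and 1.11 on 21 UMIs or fewer. The clusters were formed separately in each library, so their cells need not be the same state of FAP/MP in each, and the shares of such states were not tested.

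**Figure D4:**
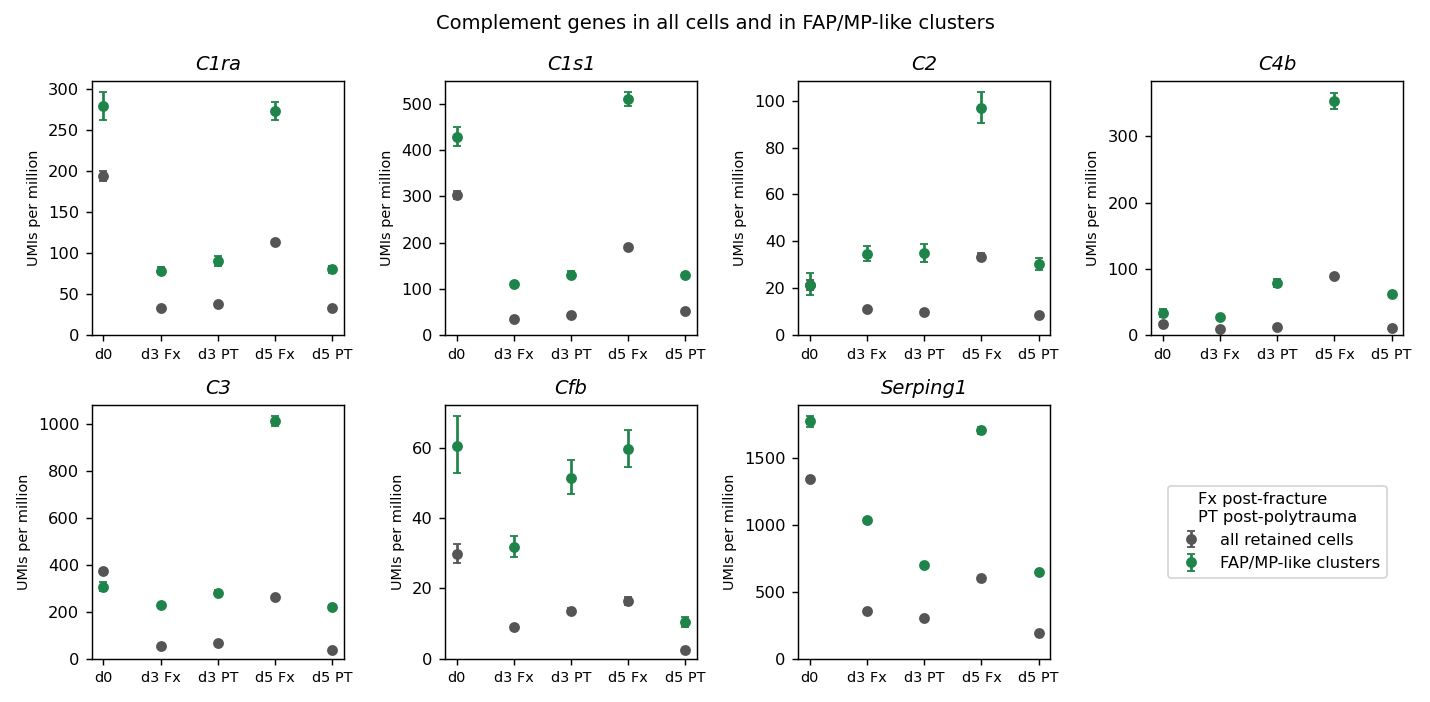
Level of each gene (CPM, axes from 0) in all retained cells and in FAP/MP-like clusters of the 5 libraries, with bars for the 95% counting interval; Fx is post-fracture and PT post-polytrauma. C3 at d3 post-fracture was at 231 in FAP/MP-like clusters and 56.5 in all cells, and every gene was higher at d5 post-fracture than at d5 post-polytrauma in both sets of cells.

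Likeness of pattern was described over 57 clusters of at least 50 cells, by Pearson's r of log2 levels centred within each library, with no test because clusters share libraries and depth. Among 9377 genes the closest to C3 was the progenitor gene Pi16 (r = 0.92), followed by Col14a1 (r = 0.90). The closest to C4b was C3 (r = 0.86), and Dapk1 was among the 3 closest to C3, C4b and Cfb. C1s1 was closest to Serping1 (r = 0.90) and C1ra (r = 0.90), C1ra to Selenop (r = 0.93), and Serping1 to C1s1. Chrdl1 (r = 0.78) was among the 3 closest to C2, and Cfb was closest to Pnp2 (r = 0.86). Among the 7 genes themselves the least alike pair was C2 and C3 (r = 0.49).

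The other complement genes placed these levels in the pathway. Of the 58 complement genes listed, 56 were in the matrices and 16, the 7 genes included, reached 10 CPM in some library. The recognition subunits C1qa, C1qb and C1qc, which macrophages mainly make, were at 0.652 CPM or less, and the terminal components C6, C8a, C8b and C9 had 2 UMIs or fewer in any library. Of the other terminal components, Hc, the gene of C5, had 9 UMIs or fewer, C7 had 15 or fewer, and C8g, a subunit of C8, had 10 to 221 UMIs and reached 1.87 CPM. C3ar1, the receptor for the C3a fragment, was at 0.0772 CPM or less.

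Several membrane and fluid-phase regulators had the same highest libraries as C3. Cd55, decay-accelerating factor, which takes convertases apart, was at 140.6 CPM at d0, 5.04 and 5.17 in the d3 libraries, 31.7 at d5 post-fracture and 3.28 at d5 post-polytrauma. Clu, clusterin, which blocks the terminal complex, was at 72.3, 6.31, 5.59, 31.8 and 5.71. Cr1l, which encodes the mouse convertase regulator Crry, differed less, with 66.6 at d0 and 36.6 to 44.1 in the other libraries. Vtn, vitronectin, was at 88.2, 23.2, 11.004, 25.0 and 8.87, and Cd59a, an inhibitor of the terminal complex, at 18.3, 8.07, 3.24, 26.9 and 11.1. The collectin Colec12 was at 64.3, 34.3, 44.0, 104 and 75.9. Masp1, a protease of the lectin pathway, was lowest at d0, at 2.07, and stood at 8.67, 4.30, 24.5 and 10.6 after injury. C1qbp, a mostly mitochondrial protein named for binding C1q, was at 18.1 at d0 and 183 at d5 post-polytrauma, its highest library. Of the 10 other complement genes among the genes tested, 5 were at least 2-fold lower and 1 higher at d3 post-fracture than at d0, and 6 were lower and none higher at d5 post-polytrauma than at d5 post-fracture, shares to be read beside the 25.1% and 6.97% of all genes above.

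**Figure D5:**
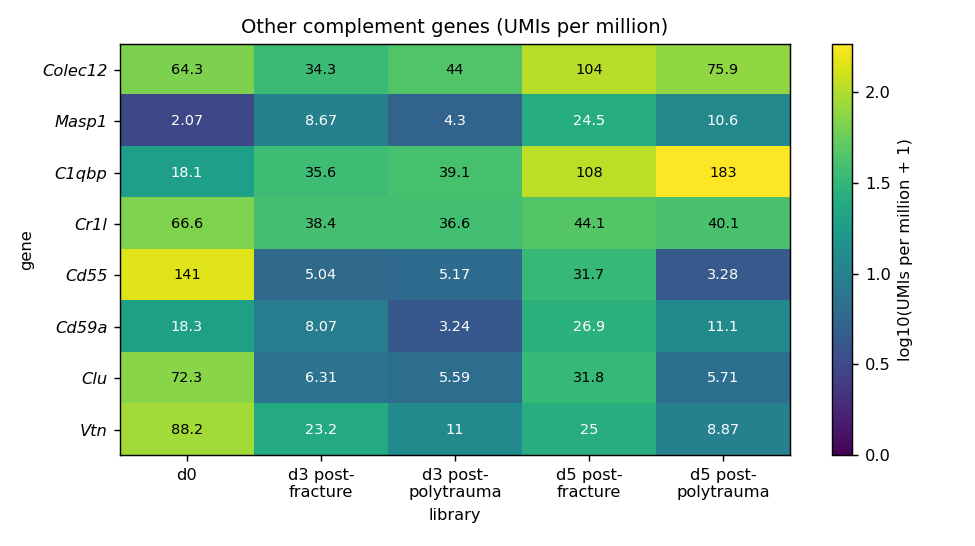
Levels (CPM, printed in each cell, with colour as log10 of the level plus 1) of 8 other complement genes that reached 10 CPM in a library. Cd55 and Clu were highest at d0 and next highest at d5 post-fracture, and C1qbp was highest at d5 post-polytrauma.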

How the data were processed

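Single-cell 3' libraries of 5 samples were made with a 10x Genomics kit and aligned to mm10 by the authors with Cell Ranger (the matrix headers name 3.1.0), and Seurat 3.1.2 is named in the submitters' processing notes. The deposited matrices hold raw counts, as UMIs per gene and barcode. Retained cells had 350 to 8000 genes, under 20% mitochondrial UMIs, at least 1000 UMIs and fewer than 3 Tyrobp UMIs. Possible doublets were retained, and an alternative left them out by Scrublet score. UMIs were summed per library and given as CPM. Intervals are exact Poisson, exact conditional (ratios) or Clopper-Pearson (shares), all at 95%. A gene was called at a 2-fold difference. The ratio intervals, the 2-fold call and the thinning were tested on simulated counts, drawn without variation between libraries. The clustering, cluster names, doublet scores and motif search were not. Clustering used 2000 variable genes, 20 principal components and Leiden resolution 0.5 (scanpy 1.11.5, Python 3.11.15). Named beside the 7 genes were listed complement genes at 10 CPM or more, the 3 genes most alike each member, and the 4 interferon-stimulated genes of highest level in a library. Saa3, Hp, Lcn2, Cp, Irf1, Stat3, Ifngr1, Cebpb and Cebpd were taken from the acute-phase list after its values were seen. The members and lists were chosen with earlier results of these data known. Alternatives covered scaling, depth, cell filters, doublets, shared barcodes, cluster resolution and the deposited labels. Protein sequences were not used here, and 1 other complement gene is not reported here.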

Additional observations from a re-analysis of the deposited data

Results flagged for a closer look

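From d3 to d5, 6 genes were higher post-fracture and lower post-polytrauma, in 1 library each. For C2, C4b and C1ra the fall post-polytrauma was small, with log2 ratios of -0.191, -0.201 and -0.196. The difference between the injuries was not tested. The d5 over d3 ratio post-fracture divided by that ratio post-polytrauma was 12.1 for C4b, 9.78 for Cfb, 8.64 for C3, 3.95 for C1ra, 3.45 for C2 and 2.66 for Serping1. The d5 libraries carry another barcode set than the d3 libraries, and barcode set and day cannot be told apart.

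The 100 cells with 3 or more Tyrobp UMIs at d3 post-polytrauma, which were left out of the comparisons between conditions, held complement UMIs above the limit that a count of 0 allows. They held 74 Serping1, 18 C3, 14 C1s1 and 7 Cfb UMIs. Whether these came from free RNA, doublets or the cells themselves was not tested.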

How the results depend on the processing

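No paired analysis was possible because each condition has 1 library. Of the 25 member ratios past 2-fold, all 25 stayed past it in the same direction with no minimum of UMIs, with Tyrobp cells retained, without shared barcodes, without possible doublets and, chosen after seeing the data, without every barcode found in another library and without pericyte-like clusters. By a mean over cells and at 2000 UMIs per cell 22 did, and by median-of-ratios scaling 21. C4b post-fracture and C2 and Cfb post-polytrauma, against d0, were lost under all 3, and C2 from d3 to d5 post-fracture under median-of-ratios scaling alone, where 3 instead of 1 genes were lower from d3 to d5 post-polytrauma. A 1.5-fold threshold gave 3 there and 1 gene higher at d3 post-polytrauma than post-fracture. The share of all genes was not computed for the counts by median-of-ratios scaling or at 1.5-fold.

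UMIs per retained cell and FAP/MP-like clusters alone were chosen after seeing the data. By UMIs per cell 0 genes were at least 2-fold lower at d3 than at d0, and 2 were at least 2-fold higher post-fracture and 3 post-polytrauma, where 6 were lower by CPM after each injury. Within a comparison this scale moves the ratio of every gene against d0 up by the same factor. The share of all genes past 2-fold was not computed on it, so these counts cannot be read as a rise of the complement genes. Log2 ratios that turned were C4b 1.24, Cfb 0.54 and Serping1 0.33 post-fracture, and C2 1.05, Cfb 1.04 and Serping1 0.02 post-polytrauma. In FAP/MP-like clusters 2 genes were lower than at d0 post-fracture, against 21.8% of all genes tested there. Post-polytrauma 3 were lower, 1 was higher and C2 turned to 0.70, with no share of all genes computed. At d3 post-polytrauma 1 gene was higher than at d3 post-fracture, against 3.88%.

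Under the deposited labels of the 2 exchanged libraries, 9 of the 25 calls held. At d3 post-polytrauma 1 gene was lower and 1 higher than at d0 (C2 0.65), with no share of all genes computed. In that library 5 were higher than at d3 post-fracture, against 33% of all genes for the same 2 libraries. At d5 post-fracture 0 were higher than at d3 (C2 -0.16), against 1.57%. At d5 post-polytrauma 7 were lower than at d3, against 6.97%, and 1 was lower than at d5 post-fracture (C1s1 0.21), against 3.36%. Col2a1, a cartilage collagen, was at 1527 CPM in the library used as d5 post-fracture and 0.107 in that used as d3 post-polytrauma, values that were not used to assign conditions. The d0 cells were the shallowest, which limits low genes such as C2, C4b and Cfb most.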

Other observations

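Of the 22 interferon-stimulated genes among the genes tested, 17 were at least 2-fold lower at d3 post-fracture than at d0 (25.1% of all genes), 19 were higher at d5 post-fracture than at d3 (33%), and 13 were lower at d5 post-polytrauma than at d5 post-fracture (6.97%). By their highest level in any single library the leading genes of the list were Bst2, Ifi27l2a, Isg15 and Irgm1. Bst2, an antiviral tether, was at 103 CPM at d0, 56.6 at d3 post-fracture, 162 at d3 post-polytrauma, 139 at d5 post-fracture and 101 at d5 post-polytrauma. Ifi27l2a was at 127, 42.3, 129, 143 and 40.6 CPM in the same order, Isg15 at 107, 13.2, 47.0, 64.3 and 25.3, and Irgm1, an interferon-induced GTPase, at 76.6, 1.19, 5.28, 17.2 and 4.52. Of the 20 acute-phase and cytokine-response genes, 10 were lower and 3 higher at d3 post-fracture than at d0, against 25.1% and 12.6% of all genes. Saa3, a serum amyloid gene, was at 2.98 CPM at d0, 80.3 and 153 in the d3 libraries, and 26.0 and 12.5 in the d5 libraries, an order unlike that of C3. Of the acute-phase list only Cp, Irf1, Stat3 and Ifngr1 were like C3 highest at d0 and next highest at d5 post-fracture. Like Saa3, Hp and Lcn2 were lowest at d0, at 3.21 and 2.87 CPM. Hp was highest at d5 post-fracture (124 CPM) and Lcn2 at d3 post-polytrauma (28.3 CPM). Cp was at 40.7 CPM at d0, 8.16 and 10.5 in the d3 libraries, and 38.2 and 13.3 in the d5 libraries. Irf1 was at 214.6, 12.2, 6.81, 98.5 and 47.7 CPM in the same order.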
